A study of Mus musculus with 21 samples.

Results

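The genes described are 8 genes of the bone marrow stroma: the CCN family genes Ccn1 (older name Cyr61), Ccn2 (Ctgf), Ccn3 (Nov), Ccn4 (Wisp1) and Ccn5 (Wisp2), and the YAP target genes Ankrd1, Amotl2 and Ajuba. They were chosen by name, with earlier results of these data known. All 8 were found by Ensembl identifier among the 26852 genes of the deposited table. Of these, 7 passed the filter on low values, which 12976 genes passed, and Ankrd1 did not. CCN proteins are secreted proteins of the extracellular matrix that bind integrins and growth factors and act on cell adhesion, bone formation and fibrosis. YAP and TAZ are coactivators that enter the nucleus when the Hippo kinases are inactive and bind TEAD factors, and Ccn1, Ccn2 and Ankrd1 are among their best known targets. Amotl2 and Ajuba encode proteins that act back on the pathway, Amotl2 by binding YAP and Ajuba by binding the LATS kinases.

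The study followed stromal cells of mice that carried human acute myeloid leukaemia (AML) cells. The leukaemia cell lines HL60 and ML1 were transplanted without conditioning into Nestin+ NSG mice, an immune-deficient strain, aged 8 to 12 weeks. From the study's methods, the transplanted cells released a lipid-permeable mCherry that neighbouring cells took up. RNA of sorted bone marrow-derived Nes-low mesenchymal cells was amplified to cDNA and sequenced. The ctrl group holds 3 libraries of unengrafted mice. The early ch+ and early ch- groups, which carry mCherry or lack it, hold 3 libraries of each cell line, and so does the late group, which is labelled with no marker. The study set early and late by the extent of leukaemic engraftment, low in early and heavy in late. It describes late as a point at which every cell touches leukaemia cells. The treatment field of the ML1 late libraries reads unengrafted, and they were kept as late from their titles. Libraries are named here by their group and the number in their title, and values follow the order of those numbers. The labels do not say that the libraries come from separate mice, so a p-value here measures the spread between libraries. Which ch+ and ch- libraries share a mouse is not given. Host mice of this strain lack lymphocytes, so stroma was not studied beside a complete immune system. The values are regularized log2 values and the files give no sequencing depth per library; the study's methods state a typical yield only.

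The labelled cell type was checked against marker genes. Cxcl12 averaged 15.19 in ctrl on the log2 scale, Lepr 12.60 and Pdgfra 11.79. The endothelial gene Pecam1 averaged 5.59 in ctrl, although the extraction text shared by all libraries describes a sort for its product, CD31. Ptprc, a gene of blood cells, averaged 2.56 in ctrl and Vwf 3.78. Nes itself was at 7.39 in ctrl, 7.32 in early ch-, 7.30 in early ch+ and 7.30 in late. Mesenchymal markers were therefore abundant, and Ptprc, Vwf and Pecam1 were far below them. Other genes of blood and endothelium stood near the level of Nes in ctrl, with Lyz2 at 7.93, Hbb-bs at 7.59 and Cdh5 at 6.56.

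Levels of different genes were compared per kilobase of exon. In ctrl, Ccn1 stood at 11.33 on the log2 per kilobase scale and Ccn2 at 11.21, with overlapping libraries. Ccn4 followed at 9.48, Ccn5 at 6.81, Amotl2 at 5.82, Ccn3 at 5.61, Ajuba at 2.63 and Ankrd1 at -0.79. Amotl2 and Ccn3 overlapped there, and the remaining neighbours did not. The order in early ch- was the same. In early ch+ the means of Ccn3 and Amotl2 changed places within overlapping ranges. In late, Ccn5 at 9.48 stood above Ccn4 at 7.93, and the lowest Ccn5 library, 9.14, was above the highest Ccn4 library, 8.61.

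**Figure D1:**
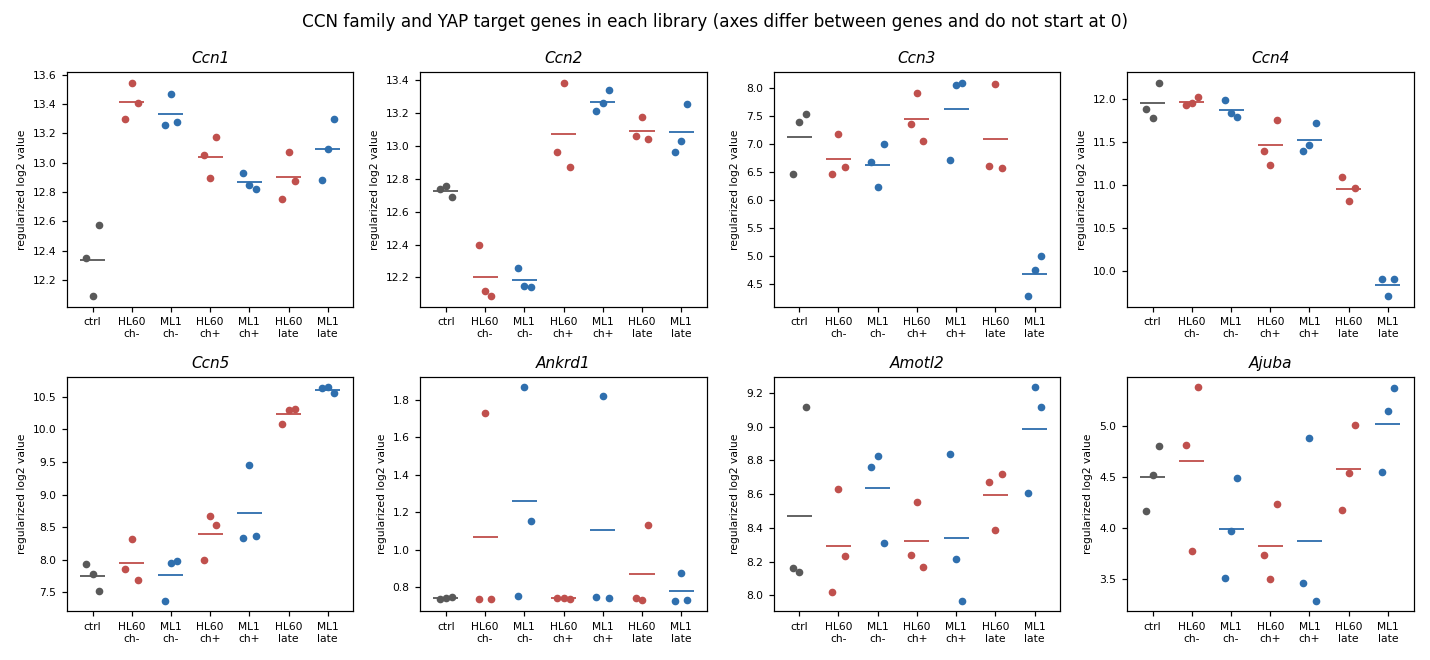
Regularized log2 value of each gene in each of the 21 libraries, with ctrl in grey, HL60 in red, ML1 in blue and a line at the mean of each group of 3. Ccn5 is highest and Ccn4 lowest in the late libraries, and Ccn1 and Ccn2 stand on opposite sides of ctrl in early ch-.

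Ccn1, on chromosome 3 at 145646976 to 145649981 of the mm10 build, encodes a matrix protein that binds integrins. Its log2 values in ctrl were 12.35, 12.09 and 12.58. In early ch- they were 13.30, 13.54 and 13.41 for HL60 and 13.26, 13.47 and 13.28 for ML1. The lowest ch- library was above the highest ctrl library in both lines. In early ch+ the values were 13.05, 12.90 and 13.18 for HL60 and 12.93, 12.85 and 12.82 for ML1. In late they were 12.75, 13.07 and 12.87 for HL60 and 12.88, 13.10 and 13.30 for ML1. The ch+ and late libraries lay above ctrl and overlapped each other, and the ch+ libraries lay below the ch- libraries.

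Each difference was tested with limma over the 12976 genes and called at an adjusted p under 0.1. In early ch-, Ccn1 was 2.05-fold above ctrl, a log2 difference of 1.04 (SE 0.13, adjusted p 1.02e-05). The difference was 1.08 in HL60 and 1.00 in ML1. In early ch+ Ccn1 was above ctrl by 0.62 (SE 0.13, adjusted p 0.0035), and in late by 0.66 (SE 0.13, adjusted p 0.000424). These comparisons share the 3 ctrl libraries. With the lines apart, the ch+ difference from ctrl was 0.70 in HL60 and 0.53 in ML1, and without ctrl 374 the ML1 call ended at 0.40 (adjusted p 0.117). Between ch+ and ch- libraries Ccn1 differed by -0.42 (SE 0.11, adjusted p 0.0139). With every library rescaled to the mean total it was -0.27 and not called (adjusted p 0.259). As deposited, the difference was not called in HL60 alone, at -0.37 (adjusted p 0.156), and was called in ML1, at -0.47 (adjusted p 0.0449). The ML1 call ended without ch- 544, ch+ 539 or ch+ 541, with differences of -0.40, -0.46 and -0.44. It also ended when rescaled, at -0.29 (adjusted p 0.304), and with no filter on low values (adjusted p 0.122). Late against early ch+ gave 0.041 (95% interval -0.18 to 0.26).

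Ccn2, on chromosome 10 at 24595442 to 24598683, encodes the connective tissue growth factor, a matrix protein known for its part in fibrosis. Its log2 values in ctrl were 12.74, 12.75 and 12.69. In early ch- the lowest, median and highest libraries were 12.09, 12.14 and 12.40, and in early ch+ they were 12.87, 13.23 and 13.38. In late they were 12.96, 13.05 and 13.25. All ch- libraries lay below ctrl, and all ch+ and late libraries lay above it. Gm15270, a processed transcript on the opposite strand, overlaps Ccn2 over 1667 bases, 1286 of them exonic. It averaged 4.87 in ctrl and 5.53 in late. The study's methods describe reads that keep their strand and were counted by it, from Ovation cDNA and library kits. Whether these libraries kept the strand was not tested, nor was the part of Gm15270 in the Ccn2 values.

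Against ctrl, Ccn2 was lower in early ch- by a log2 difference of -0.53 (SE 0.12, adjusted p 0.0189). It was higher in early ch+ by 0.44 (SE 0.12, adjusted p 0.0302) and in late by 0.36 (SE 0.12, adjusted p 0.0378). Leaving out ctrl 375 ended the ch+ call, at 0.42 (adjusted p 0.11), and the late call, at 0.34 (adjusted p 0.122). Without the mean-variance trend all 3 calls against ctrl ended, with adjusted p-values of 0.117 for late, 0.125 for ch+ and 0.11 for ch-. Between ch+ and ch- libraries Ccn2 had the lowest adjusted p of the 7 tested genes, with a difference of 0.98 (SE 0.098, adjusted p 5.27e-08), and no library left out ended it. The same difference was 0.87 in HL60 (adjusted p 3.53e-05) and 1.09 in ML1 (adjusted p 1.12e-06). Late against early ch- gave 0.89 (SE 0.098, adjusted p 5.64e-08), and late against early ch+ gave -0.083 (95% interval -0.28 to 0.12).

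With the lines apart, some of the Ccn2 calls against ctrl ended when a library was left out, and those of ML1 ch- and ML1 ch+ did not. In ch-, HL60 differed from ctrl by -0.52 (adjusted p 0.0283) and ML1 by -0.54 (adjusted p 0.0192). The HL60 call ended without ctrl 374, HL60 ch- 528 or HL60 ch- 529, with differences of -0.51, -0.48 and -0.47. In ch+, HL60 differed by 0.35, which was not called (adjusted p 0.14), and ML1 by 0.54 (adjusted p 0.0073). In late the differences were 0.37 in HL60 (adjusted p 0.0588) and 0.36 in ML1 (adjusted p 0.0468). The HL60 late call ended without any of ctrl 373, 374 and 375 and HL60 late 397 and 398, with differences of 0.33 to 0.38, and with no filter on low values (adjusted p 0.105). The ML1 late call ended without ctrl 375, at 0.34, or ML1 late 583, at 0.27.

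Ccn1 and Ccn2 were also compared within each library, where any factor applied to a whole library drops out. Ccn1 minus Ccn2 averaged -0.39 ± 0.28 (SD, n = 3) in ctrl and 1.18 ± 0.21 (SD, n = 6) in early ch- on the log2 scale. It averaged -0.21 ± 0.34 (SD, n = 6) in early ch+ and -0.091 ± 0.14 (SD, n = 6) in late. The ch- libraries, at 0.90 to 1.42, lay above every other library, of which the highest was 0.31 in HL60 ch+ 525. This difference restates the values given above for both genes and is no separate support. No other pair of members was subtracted in this way.

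**Figure D2:**
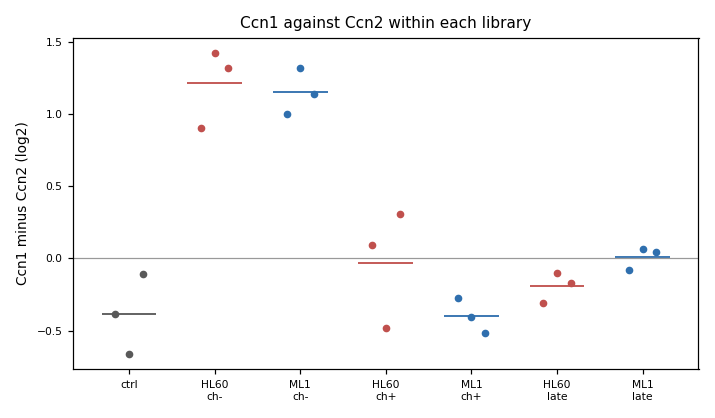
Ccn1 minus Ccn2 on the log2 scale within each library, one point per library and a line at the mean of each group of 3. The 6 early ch- libraries sit between 0.90 and 1.42, above the other 15.

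Ccn4, on chromosome 15 at 66891320 to 66923201, encodes a Wnt-induced CCN protein made by bone-forming cells. Its log2 values in ctrl were 11.89, 11.78 and 12.19. In late they were 11.09, 10.81 and 10.97 for HL60 and 9.91, 9.71 and 9.91 for ML1. Early ch- libraries ran from 11.79 to 12.02 and early ch+ libraries from 11.23 to 11.75. Late libraries were below all others, and those of ML1 were below those of HL60.

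Late Ccn4 differed from ctrl by -1.55 on the log2 scale (SE 0.22, adjusted p 6.00e-06), by -0.99 in HL60 and by -2.11 in ML1. The difference between the lines in late was itself called, at 1.11 (SE 0.14, adjusted p 2.67e-06). Late also differed from early ch+ by -1.09 (adjusted p 3.73e-05) and from early ch- by -1.52 (adjusted p 1.98e-07). Early ch+ against ctrl was not called in the fit of 4 groups, at -0.46 (adjusted p 0.289), nor was ch+ against ch-, at -0.42 (adjusted p 0.229). These non-calls depend on the fit. As the mean of both lines in the fit of 7 groups the same differences had adjusted p-values of 0.0223 and 0.00696, and with only the groups compared 0.0598 and 0.00802. In neither comparison did the libraries overlap.

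With the lines apart, smaller Ccn4 differences were called near the threshold. For HL60 ch+ against ctrl the difference was -0.49 (adjusted p 0.05), and the call ended without ctrl 375, HL60 ch+ 523 or HL60 ch+ 524, at -0.37, -0.46 and -0.38. For HL60 ch+ against ch- it was -0.51 (adjusted p 0.0502), and the call ended without HL60 ch- 527, 528 or 529 or HL60 ch+ 523 or 524, at -0.53 to -0.39. For ML1 ch+ against ctrl Ccn4 differed by -0.43 (adjusted p 0.0919). That call ended on leaving out any of 12 libraries, with differences of -0.46 to -0.31. They were ctrl 373 and 375, HL60 ch- 527, 528 and 529, ML1 ch- 544 and 546, ML1 ch+ 538 and 539, HL60 late 399, and ML1 late 581 and 583.

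Ccn5, on chromosome 2 at 163820861 to 163833146, encodes the CCN protein that lacks the C-terminal domain of the others. Its log2 values in ctrl were 7.94, 7.79 and 7.53. In late they were 10.08, 10.30 and 10.32 for HL60 and 10.64, 10.64 and 10.55 for ML1. Early ch+ libraries ran from 8.00 to 9.45 with a median of 8.45, and early ch- libraries from 7.38 to 8.32 with a median of 7.90. All late libraries were above all others, and the ch+ libraries were above ctrl but overlapped ch-.

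Late Ccn5 was 6.36-fold above ctrl, a log2 difference of 2.67 (SE 0.23, adjusted p 2.93e-09), with 2.48 in HL60 and 2.86 in ML1. The difference between the lines was not called, at -0.38 (adjusted p 0.723). Late exceeded early ch+ by 1.87 (adjusted p 1.50e-08) and early ch- by 2.56 (adjusted p 3.83e-11). Early ch+ exceeded ctrl by 0.80 (SE 0.23, adjusted p 0.0404), a call that ended without ctrl 374, at 0.82 (adjusted p 0.108), or ctrl 375, at 0.69 (adjusted p 0.191). It also ended with no filter on low values (adjusted p 0.118). Early ch+ also exceeded ch- by 0.69 (SE 0.19, adjusted p 0.0238). In HL60 alone neither ch+ difference was called, at 0.65 from ctrl and 0.44 from ch-. In ML1 the difference from ctrl was 0.96 (adjusted p 0.0217), which without ML1 ch+ 539 was 0.59 and not called. The ML1 difference from ch- was 0.94 (adjusted p 0.0327), and that call ended without ML1 ch- 543, at 0.75, or ML1 ch+ 539, at 0.58.

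Ccn3, on chromosome 15 at 54745702 to 54754039, encodes a CCN protein first found as an overexpressed gene in a kidney tumour. Its log2 values in ctrl were 6.46, 7.40 and 7.53. In late they were 6.61, 8.08 and 6.57 for HL60 and 4.29, 4.75 and 5.00 for ML1. Early ch- libraries ran from 6.23 to 7.18 and early ch+ libraries from 6.72 to 8.09. The ML1 late libraries were below all others, and the HL60 late libraries overlapped ctrl. Late Ccn3 differed between the lines by 2.41 (SE 0.42, adjusted p 0.000297). ML1 late was below ctrl by -2.45 on the log2 scale (adjusted p 4.86e-05), and HL60 late differed from ctrl by -0.045 (adjusted p 0.973). In the fit of 4 groups, late against ctrl was not called, at -1.25 (adjusted p 0.109), and late against early ch+ was, at -1.65 (adjusted p 0.00635). The former was called as the mean of both lines in the fit of 7 groups (adjusted p 0.014) and with the filter at 50 normalized counts (adjusted p 0.0993). It was also called without ctrl 373, at -1.58 (adjusted p 0.0816), or without HL60 late 397, 398 or 399, at -1.40, -1.69 and -1.39. In HL60 libraries and ctrl alone late against early ch+ was -0.35 (adjusted p 0.739).

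Among the genes outside the CCN family, Amotl2 on chromosome 9 ran from 7.97 to 9.23 over the 21 libraries. Its groups overlapped in each comparison with ctrl. Amotl2 was not called in the fit of 4 groups, nor with the lines apart in the fit of 7 groups. Late Amotl2 differed from ctrl by 0.32 (95% interval -0.17 to 0.80), and without ctrl 375 it was called, at 0.64 (adjusted p 0.0949). Late against early ch+, at 0.46 (adjusted p 0.117), was called without ctrl 375, at 0.46, ML1 ch+ 538, at 0.56, or HL60 late 398, at 0.54. With all libraries it was also called with quantile normalization, at 0.48 (adjusted p 0.0923), as the mean of both lines in the fit of 7 groups (adjusted p 0.0968) and with only the groups compared in the fit (adjusted p 0.0821). Rescaling to the mean library total, which raised the median of all genes as given below, brought Amotl2 to 1.01 against ctrl and 1.07 against ch+, both called. Ajuba on chromosome 14 ran from 3.29 to 5.38. In the fits of 4 and 7 groups it was called in late against early ch+ alone, at 0.95 (SE 0.32, adjusted p 0.0427). That call ended without ML1 ch+ 541, at 0.84 (adjusted p 0.104), or ML1 late 583, at 0.84 (adjusted p 0.112), and in HL60 or ML1 libraries with ctrl alone (adjusted p 0.408 and 0.117). When rescaled, Ajuba was also called in late against ctrl, at 0.995 (adjusted p 0.0443), and against ch-, at 1.25 (adjusted p 0.00235). Ankrd1 on chromosome 19, a gene best known from heart and skeletal muscle, averaged 0.94, and 15 of its 21 libraries lay within 0.05 of its lowest value. It was not tested, and its highest library, in ML1 ch-, was 1.87.

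**Figure D3:**
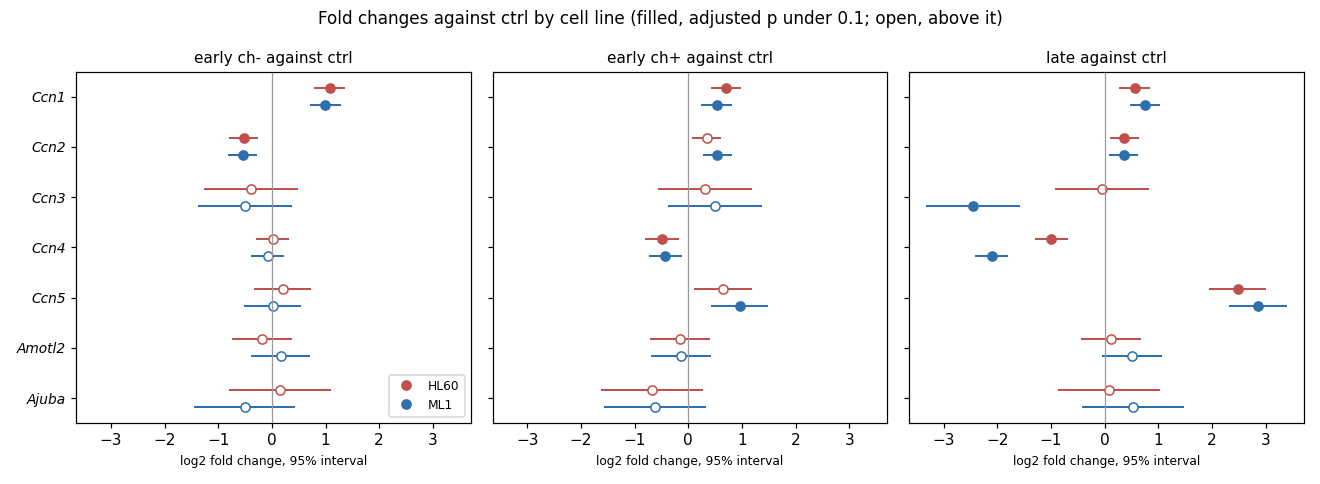
Log2 fold change against ctrl of the 7 genes tested, HL60 in red and ML1 in blue, with 95% intervals; filled points have an adjusted p under 0.1. Late Ccn5 stands at 2.48 and 2.86, and late Ccn3 at -0.045 in HL60 and -2.45 in ML1.

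Counts over the 7 tested genes were set beside those over all genes. The members were chosen with earlier results of these data known, so the counts here and below are a description and no test of an excess. By mean level, Ccn1 and Ccn2 stood at percentile 99.8 of the whole table, Ccn4 at 99.1 and Ccn5 at 91.2. Amotl2 stood at 89.6, Ccn3 at 75.7 and Ajuba at 58.1. The share called among genes of like level was not computed. In late against ctrl, 3 of 7 were called higher and 1 lower, where 21.5% of all genes were called. In early ch+ against ctrl, 3 were called higher and 0 lower, beside 6.17% of all genes, and without ctrl 375 the count was 1, beside 4.89%. In early ch- against ctrl, Ccn1 was called higher and Ccn2 lower, beside 1.92%. The median log2 differences of the 7 genes were 0.32, 0.40 and -0.033 in these comparisons, and those of all genes 0.019, 0.011 and 0.0098. Early ch+ against ch- gave 2 higher and 1 lower, beside 6.26%. Late against early ch+ and late against early ch- each gave 2 higher and 2 lower, beside 19.7% and 22.5%.

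With the cell lines apart, HL60 late against ctrl gave 4 called genes, beside 13.7% of all, and ML1 late gave 5, beside 22%. HL60 ch+ gave 2 against ctrl, beside 5.33%, and ML1 ch+ gave 4, beside 6.69%. The HL60 ch+ count was 1 without ctrl 375, beside 4.65%, and the ML1 ch+ count was 2 without ML1 ch+ 539, beside 4.48%. HL60 ch- gave Ccn1 and Ccn2, beside 1.57%, and Ccn1 alone without ctrl 374, beside 0.979%, and ML1 ch- gave Ccn1 and Ccn2, beside 2.34%. Against ch-, HL60 ch+ gave Ccn2 and Ccn4, beside 3.92%, and ML1 ch+ gave Ccn1, Ccn2 and Ccn5, beside 4.25%. Those counts were 1 without HL60 ch- 527, beside 3.18%, and 1 without ML1 ch+ 539, beside 2.87%. Between the lines, Ccn3 and Ccn4 were called in late, beside 4.09%. In ch+ and in ch-, limma called 0 of the 7 genes between the lines, beside 0.0154% and 0.0539%, with 0 at an unadjusted p under 0.05. The change from ch- to ch+ was called as different between the lines for 0 of 7, beside 0.00771%, and 0 had an unadjusted p under 0.05.

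How libraries are scaled matters for the late group. The summed linear signal was 7260000 to 9020000 in late libraries and 11900000 to 14200000 in ctrl. A ribosomal RNA gene, CT010467.1, held 16.8% to 38.6% of it, and Col1a1 held 0.764% to 11.1%. Rescaling every library to the mean total moved the median of all genes to 0.71 in late against ctrl, 0.63 in late against early ch+ and 0.77 in late against early ch-. In ch+ against ch- it moved to 0.13. Relative to that median, late Ccn1 differed from ctrl by 0.64, Ccn2 by 0.34, Ccn4 by -1.57 and Ccn5 by 2.65. Ccn1 in late against early ch- was lower as deposited, at -0.38 (adjusted p 0.01), and higher when rescaled, at 0.39 (adjusted p 0.00862). The rescaled value was still below the median of all genes there, 0.77, so relative to that median Ccn1 stayed lower in late. Ccn1 in ch+ against ch- was -0.27 when rescaled and no longer called (adjusted p 0.259). Of all genes called in late against ctrl, 47.3% were higher as deposited and 93.8% when rescaled. The same shares were 44.6% and 93.5% in late against early ch+, and 45.3% and 95.3% in late against early ch-. Against ctrl they were 55.4% and 66.7% for ch+, and 59% and 41.9% for ch-. For ch+ against ch- they were 57.1% and 78.6%.

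Markers of other cell types moved with these results. All 14 tested chondrocyte markers were called lower in late and 12 in early ch+ against ctrl. Their summed log2 level, with Col2a1 the most abundant in ctrl, ranged over 17.05 to 17.85 for ctrl libraries and 16.46 to 17.18 for ch- libraries. It ranged over 15.47 to 16.20 for ch+ and 12.51 to 15.06 for late libraries. Of 12 osteoblast markers, 9 were called lower and 1 higher in late. Their sum, with Col1a1 the most abundant, lay between 20.26 and 20.71 for ctrl, 19.98 and 20.47 for ch-, and 19.84 and 20.08 for ch+ libraries. It was 18.63 to 19.01 in HL60 late and 16.36 to 17.04 in ML1 late. In ch+ against ctrl limma called 0 of the 12, with 1 at an unadjusted p under 0.05, and with the lines apart 3 were called lower in each. Against ch-, 2 were called lower in ch+. Late Ccn4 and Ccn3 thus differed between the lines in the same direction as the osteoblast markers, of which 10 were called higher in HL60. So were 9 of the chondrocyte markers and 3 of 4 tendon and fibroblast markers, with differences of 2.501 for Col1a1, 1.99 for Col2a1 and 2.25 for Fmod. Of 11 markers of CXCL12-abundant or leptin receptor stroma, 9 were called higher in late and 8 in ch+, and 1 lower in late. Their sum, led by Cxcl12, lay between 15.51 and 16.14 for ctrl, 15.59 and 16.52 for ch-, 16.28 and 16.87 for ch+, and 16.75 and 17.06 for late libraries. In bulk libraries, fewer cells of a type and less RNA per cell cannot be told apart. The part of these cells in the Ccn results was not tested.

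Blood cell genes were higher in both early groups than in ctrl and late, although the extraction text says that blood cells of both species were removed with magnetic beads and the study's methods name stains for CD45 and Ter119 at the sort. Of 10 blood cell markers, 9 were called higher in ch- and 10 in ch+ against ctrl. Their summed log2 level, led by Lyz2, lay between 8.18 and 9.47 for ctrl, 10.79 and 11.95 for ch-, 10.45 and 11.71 for ch+, and 7.19 and 8.23 for late libraries. Of 8 red cell markers, 7 were called higher in ch- and 8 in ch+. Their sum, led by Hbb-bs, lay between 8.39 and 9.46 for ctrl, 12.32 and 13.32 for ch-, 12.09 and 13.66 for ch+, and 6.59 and 7.05 for late libraries. Limma called 0 genes of either list between ch+ and ch-, with 0 at an unadjusted p under 0.05. Their part in the differences from ctrl was not tested. Of 5 skeletal muscle markers, 5 were called higher in ch+ and 1 in ch- against ctrl, and 1 lower in late, and their sum, led by Ttn, lay between 6.63 and 7.51 for ctrl, 7.91 and 9.42 for ch-, 8.13 and 9.77 for ch+, and 5.80 and 6.42 for late libraries. Limma called 0 of the 5 between ch+ and ch-, with 3 at an unadjusted p under 0.05, and in ML1 alone 2 were called higher in ch+.

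Other stromal lists moved less evenly. Of 11 smooth muscle markers, 8 were called lower in ch+ and 5 in late, with a sum, led by Myh11 in ctrl, between 13.83 and 14.95 for ctrl, 13.36 and 14.19 for ch-, 12.12 and 12.84 for ch+, and 12.79 and 13.53 for late libraries. Between ch- and ch+, 8 of the 11 were called lower in ch+, and in ch- against ctrl limma called 0, with 4 at an unadjusted p under 0.05. Of 7 pericyte markers, led by Rgs5 in ctrl, 3 were called higher and 2 lower in late, and 3 lower in ch+. Of 4 tendon and fibroblast markers, led by Fmod in ctrl, 3 were called lower in late, and in ch+ 1 was called lower and 1 higher against ctrl. Of 8 endothelial markers, 1 was called lower in late and 1 in ch+, and their sum, led by Cdh5, stayed between 7.80 and 8.93. Their part in the Ccn results was not tested.

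Counts in the lists that follow stand beside 21.5% of all genes called in late against ctrl, 6.17% in ch+, 1.92% in ch- and 6.26% between ch+ and ch-. These lists too were chosen with earlier results of these data known. The genes of YAP and TAZ themselves, Yap1 and Wwtr1, were tested together with those of TEAD and VGLL factors as a list of 8. In late, Tead1, a DNA-binding partner of YAP, was called higher, at 1.08 (SE 0.16, adjusted p 1.33e-05), and the other 7 were not called. In ch+ and in ch- against ctrl limma called 0 of 8, with 0 at an unadjusted p under 0.05. Between the early groups it called 0 of 8, with 1 at an unadjusted p under 0.05. The list's median differences were 0.22 in late, -0.16 in ch+ and 0.056 in ch-.

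Of 22 Hippo kinases and regulators, 2 were called higher and 3 lower in late, a share close to the 21.5% of all genes, with a median of 0.049. Map4k4, a kinase upstream of LATS, was higher by 0.81 (adjusted p 0.00214). The LIM protein gene Wtip differed by -0.90 (adjusted p 0.0736), the cadherin gene Dchs1 by -0.73 (adjusted p 0.0463) and the LIM protein gene Limd1 by -0.69 (adjusted p 0.0347). The Dchs1 call ended without ctrl 375, at -0.53, and the Limd1 call without ctrl 373, at -0.60. The Wtip call ended without ctrl 374 or 375, HL60 late 397 or ML1 late 581 or 582, at -0.86 to -0.63. In ch+ against ctrl, Wtip differed by -1.64 (adjusted p 0.00333) and Fat4 by 0.67 (adjusted p 0.0281), the latter not called without ctrl 373, at 0.62. In ch- against ctrl limma called 0 of 22, with 2 at an unadjusted p under 0.05. Wtip was also called between ch+ and ch-, at -0.90 (adjusted p 0.0644). That call ended without HL60 ch- 527 or 528, ML1 ch- 544, HL60 ch+ 524 or ML1 ch+ 538 or 539, at -0.88 to -0.75.

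Of 15 other YAP and TAZ target genes, Lats2 and Ptpn14 also stand on the Hippo list and Tgfb2 on the TGF-beta list. In late, 4 of the 15 were called higher and 3 lower, with a median of 0.18. Igfbp3, which binds insulin-like growth factors, was 5.65-fold higher (adjusted p 9.29e-06), and Rbms3 differed by a log2 of 1.90 (adjusted p 3.41e-08). F3, the tissue factor gene, differed by -1.48 (adjusted p 0.0388) and Nt5e by -0.95 (adjusted p 0.0461). The F3 call ended without ctrl 373, at -1.34, or 375, at -0.996, and the Nt5e call without ctrl 373 or 375 or ML1 late 583, at -0.93 to -0.66. Between ch+ and ch-, 4 were called higher and 3 lower. The receptor kinase gene Axl led them, at 1.77 (SE 0.19, adjusted p 1.08e-07), followed by Gadd45a at 1.00 (adjusted p 0.00195), Nt5e at -0.85 (adjusted p 0.0679) and Myof at 0.78 (adjusted p 0.0177). The Nt5e call ended without HL60 ch- 527 or 528, ML1 ch- 543 or HL60 ch+ 523, 524 or 525, at -0.83 to -0.74.

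Axl stood on opposite sides of ctrl in the early groups, as Ccn2 did. In ch-, Axl differed from ctrl by -0.96 (adjusted p 0.0299), and the call ended without ctrl 374, at -0.74, or ctrl 375, at -0.95. In ch+, where 3 targets were called higher and 1 lower, Axl was higher by 0.81 (adjusted p 0.0374), and the call ended without ctrl 373, at 0.59, or ctrl 375, at 0.82. The other calls in ch+ were Gadd45a at 0.97, Rbms3 at 0.70 and Arhgef17 at -0.75. Each ended without a ctrl library: Gadd45a at 0.76 without 373, Arhgef17 at -0.51 without 373 and Rbms3 at 0.46 without 375. The list's median was -0.097 in ch+ and -0.084 in ch- against ctrl.

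CCN proteins bind integrins, syndecans and the receptor LRP1, and 12 genes of receptors and binding partners were tested, among them Tgfb1, which also stands on the TGF-beta list. Between ch+ and ch-, 4 were called higher: Itga6 by 2.37 (adjusted p 2.66e-05), Itga5 by 0.84 (adjusted p 0.00768), Itgb5 by 0.63 (adjusted p 0.0353) and Lrp1 by 0.62 (adjusted p 4.49e-05). The Itgb5 call ended without HL60 ch- 529, at 0.51, or ML1 ch+ 539, at 0.53. In late against ctrl, Itga6 differed by -3.32 (SE 0.43, adjusted p 1.49e-06), so this integrin gene was high in ch+ relative to ch- and low in late. Itgav was called higher in late, at 0.37 (adjusted p 0.071), until ctrl 373 or 374, HL60 late 397 or ML1 late 581 or 582 was left out, at 0.29 to 0.37. Sdc4 was called lower in late, at -0.46 (adjusted p 0.0992), and was 0.23 when libraries were rescaled, where the median of all genes was 0.71. That call ended without any of 14 libraries, at -0.47 to -0.35. They were ctrl 373 and 375, ML1 ch- 543 and 546, the 6 ch+ libraries, HL60 late 397, 398 and 399, and ML1 late 582. In ch+ and in ch- against ctrl limma called 0 of 12, with 3 and 4 at an unadjusted p under 0.05.

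Of 13 TGF-beta pathway genes, whose signal induces Ccn2 in many cells, 5 were called higher and 3 lower in late. The ligand gene Tgfb3 was higher by 1.74 (adjusted p 1.66e-06), the binding protein gene Ltbp1 by 0.91 (adjusted p 1.61e-05) and the inhibitor gene Smad7 by 0.87 (adjusted p 0.00633). Tgfbi differed by -0.75 (adjusted p 0.0745), a call that ended without ctrl 373 or 375 or ML1 late 581, 582 or 583, at -0.83 to -0.50. In ch+ against ch-, the receptor gene Tgfbr2 was higher by 0.58 (adjusted p 0.0166), Tgfbr1 by 0.43 (adjusted p 0.0902) and Tgfb2 differed by -0.61 (adjusted p 0.0454). The Tgfb2 call ended without HL60 ch- 527, at -0.52, or HL60 ch+ 523, at -0.49. The same call is counted above among the YAP and TAZ targets lower in ch+ than in ch-. The Tgfbr1 call ended without any of 11 libraries, at 0.35 to 0.45. They were the 6 ch- libraries, HL60 ch+ 525, ML1 ch+ 539 and 541, HL60 late 399 and ML1 late 583. In ch+ against ctrl, Tgfbr3 was called at 0.56 (adjusted p 0.0881), and without any ctrl library, HL60 ch+ 525 or ML1 ch+ 538, 539 or 541 it was not, at 0.51 to 0.65. In ch- limma called 0 of 13, with 1 at an unadjusted p under 0.05.

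Of 14 actin and SRF genes, 6 were called lower and 1 higher in ch+ against ctrl, and 5 lower and 1 higher in ch+ against ch-. Tagln was lower in ch+ than in ctrl by -2.79 (adjusted p 3.79e-06), Acta2 by -2.67 (adjusted p 2.28e-07) and Myl9 by -2.05 (adjusted p 3.53e-06). Cnn1 differed by -1.53 (adjusted p 0.0737). The Cnn1 call ended without ctrl 373 or 374, HL60 ch+ 523 or 525 or ML1 ch+ 541, at -1.51 to -0.79, and without ctrl 375 the difference was -2.35. Against ch-, the differences were -2.26 for Tagln, -1.996 for Cnn1, -1.94 for Acta2 and -1.57 for Myl9, and no library left out ended these calls. These 4 contractile genes also stand on the smooth muscle list. In late, Acta2 differed by -1.49 (adjusted p 0.000205), Tpm2 by -1.05 (adjusted p 0.000406) and the coactivator gene Mrtfa by 1.16 (adjusted p 0.00285). Tagln differed by -1.16 (adjusted p 0.0161), not called without ctrl 374, at -0.88. In ch- limma called 0 of 14, with 3 at an unadjusted p under 0.05.

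Ccn1 is induced early after serum or stress, and a list of 20 immediate early and stress genes was tested. Hspa1a and Hspa1b on it are heat shock genes and not immediate early genes. Between ch+ and ch-, 8 were called lower and 0 higher, with a median of -0.47 beside -0.019 over all genes. Btg2 differed by -0.89 (adjusted p 0.0261), Ier2 by -0.82 (adjusted p 0.00874), Nr4a1 by -0.69 (adjusted p 0.00769) and Jun by -0.53 (adjusted p 0.0563). The Jun call ended without HL60 ch- 528, ML1 ch- 544 or ML1 ch+ 539 or 541, at -0.52 to -0.49. In ch- against ctrl, 3 were called higher, with a median of 0.39. They were Hspa1a at 1.10 (adjusted p 0.0509), Klf2 at 0.79 (adjusted p 0.0448) and Fos at 0.52 (adjusted p 0.0516), and each call ended on leaving out libraries. For Hspa1a these were ctrl 373 and 374 and HL60 ch- 529, at 0.97 to 1.04, and for Klf2 they were ctrl 373 and 375, at 0.71 and 0.68. For Fos they were ctrl 373, 374 and 375 and ML1 ch- 544 and 546, at 0.45 to 0.58. In ch+ against ctrl limma called 0 of 20, with 1 at an unadjusted p under 0.05. In late, Klf4 differed from ctrl by -1.01 (adjusted p 1.04e-06) and Jun by 0.86 (adjusted p 0.00218). Hspa1a differed by 0.94 (adjusted p 0.0223) until ctrl 373, at 0.81, or ctrl 374, at 0.86, was left out, and Atf3 by -0.71 (adjusted p 0.0269) until ctrl 374 was, at -0.62.

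RefSeq promoters of the GRCm38.p6 build were searched because Ccn1, Ankrd1, Amotl2 and Ajuba, the 4 genes with an entry among 32851 promoters, are grouped here as targets of YAP, which reaches DNA through TEAD factors. The 250 bases before each RefSeq start were searched on both strands. The TEAD motif GGAATG, or CATTCC on the other strand, occurred in all 4, and in 12.6% of all promoters. The AP-1 motif TGANTCA occurred in 0 of 4 and in 6.75% of all, and the CArG box in 0 of 4 and in 1.47% of all. The window of Ccn1, the gene of the 4 with calls in each comparison with ctrl, is chr3:145649986-145650235 on the minus strand. It is given 5′ to 3′ with the TEAD motif in capitals, as are 30-base stretches around the matches in the other 3. The stretches lie at chr19:36120037-36120066 and chr19:36119950-36119979 on the minus strand for Ankrd1, chr9:102717727-102717756 on the plus strand for Amotl2, and chr14:54577830-54577859 and chr14:54577808-54577837 on the minus strand for Ajuba. Those of Ankrd1 and Amotl2 lie within an exon of the GENCODE gene, whose start differs from that of RefSeq.
Ccn1: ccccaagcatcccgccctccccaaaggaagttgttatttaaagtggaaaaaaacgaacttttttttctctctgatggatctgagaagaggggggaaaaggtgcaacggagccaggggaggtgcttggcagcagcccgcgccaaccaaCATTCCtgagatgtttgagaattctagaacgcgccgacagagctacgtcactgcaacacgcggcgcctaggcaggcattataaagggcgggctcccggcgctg
Ankrd1 first: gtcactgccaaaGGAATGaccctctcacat
Ankrd1 second: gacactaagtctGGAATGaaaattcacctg
Amotl2: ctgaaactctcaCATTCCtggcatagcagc
Ajuba first: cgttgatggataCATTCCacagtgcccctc
Ajuba second: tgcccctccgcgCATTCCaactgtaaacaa
A match is a run of letters and was not tested as a binding site.

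The genes most like each member over the 21 libraries were found by Pearson correlation of log2 values, given as a description since the libraries share groups. Among the genes most like Ccn4 were Mef2c (0.982) and Sgms2 (0.98). Ccn5 was closest to Lama4 (0.959), Cygb (0.955) and C1s1 (0.949). Ccn2 was closest to Aebp1 (0.927), Itih5 (0.907) and its listed receptor Lrp1 (0.907). Ccn3 was closest to Gsn (0.9), Tenm3 (0.89) and Cst3 (0.889). Ccn1 reached no more than 0.775 with Gm43274, 0.765 with Hspa1a and 0.749 with Tyms. Amotl2 was closest to Dusp16 (0.816), Utp4 (0.737) and Oplah (0.72), and Ajuba to Zfp51 (0.807), C2cd2 (0.77) and Cblb (0.759). Among the members, Ccn4 and Ccn5 stood furthest apart, at -0.903, and Ccn1 and Ccn2 were at -0.449. Ccn3 and Ccn4, both on chromosome 15, were at 0.646.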

How the data were processed

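The deposited values are regularized log2 values that the authors made from mm10 alignments, with STAR 2.5.1b, RSEM 1.2.29 and DESeq2 1.10.1 named in the submitters' processing notes. The files give no read counts or depth per library, and the study's methods state a typical yield only. Genes with a mean of at least log2(10) over the 21 libraries were tested with limma 3.58.1 in R 4.3.3, with a mean-variance trend, two-sided, and with Benjamini-Hochberg adjustment over all genes tested. A call is an adjusted p under 0.1. A fit of 4 groups pooled the cell lines and a fit of 7 groups kept them apart. No paired analysis was possible because no label pairs a ch+ library with the ch- library of the same mouse. Members and lists were chosen with earlier results of these data known. Of each list, up to 4 called genes with the largest change per comparison are named, and of each member genes among the 3 most correlated. Nes, Gm15270 and CT010467.1 were named after their values were seen. Positions are from GENCODE for the same build. The steps were tested on simulated data.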

Additional observations from a re-analysis of the deposited data

Results flagged for a closer look

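Among 27 groups of 6 libraries looked at, Ankrd1 had a library apart from the rest in 2, and chance flags about 1 in 20 groups. In early ch+ the highest Ankrd1 library, at a log2 value of 1.82, had a gap to the next of 0.987 of the group's range. In late the highest, at 1.13, had a gap of 0.638. Both lie at the low end of the scale.

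Differences between HL60 and ML1 in late, each tested with limma, were called for 16 of the members, pathway list genes and markers named in the report. Over all genes 4.09% were called. Pathway list genes were named from those called, so the count of 16 is not comparable with that share. The differences were 2.41 for Ccn3 (adjusted p 0.000297) and 1.11 for Ccn4 (adjusted p 2.67e-06), as HL60 minus ML1 on the log2 scale. Higher in HL60 were also the markers Col1a1 by 2.501, Fmod by 2.25, Col2a1 by 1.99 and Myh11 by 0.85, and of the list genes Itga6 by 2.02, Fat4 by 0.73 and Tgfbr2 by 0.69. Higher in ML1 were Hspa1a at -1.05, Jun at -0.93, Ier2 at -0.93, Atf3 at -0.89, Axl at -0.78, Map4k4 at -0.77 and Fos at -0.45. What sets the lines apart in late was not tested.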

How the results depend on the processing

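Log2 differences that changed sign and counts of called genes that moved past 1.5 times are given by setting, and the cause was not tested unless stated. Rescaling libraries to the mean total moves every gene of a comparison by about the same amount, here by the medians of all genes in the report. With it, late against ctrl became 0.23 for Sdc4, 0.20 for Ccdc80 and 0.14 for Smad3. Late against ch+ became 0.53 for Ccn2, 0.0042 for Axl, 0.22 for Tgfbr1, 0.24 for Mrtfb, 0.11 for Asap1, 0.23 for Ccdc80 and 0.093 for Klf2, and 7 of the 7 tested members were called, where 69.6% of all genes were and the median of all genes was 0.63. Late against ch- became 0.39 for Ccn1, 0.13 for Fosb, 0.21 for Fos, 0.29 for Nr4a1, 0.15 for Limd1, 0.13 for Tpm2, 0.0045 for Acta2 and 0.42 for Socs3. Uncalled members also changed sign when rescaled. Amotl2 was 0.019 in ch+ against ch- and 0.023 between the lines in ch+, Ccn3 was 0.53 in HL60 late against ctrl, and Ccn4 was -0.0074 in HL60 ch- against ctrl. Ccn5 was -0.11 in ML1 ch- against ctrl, Ajuba was 0.070 in ML1 ch+ against ch-, and Ccn2 was -0.23 between the lines in late. HL60 ch+ against ch- then had 1 called member, beside 4.22% of all genes.

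Quantile normalization gave 0.026 for Amotl2 in ch- against ctrl and -0.021 for Ccn1 in late against ch+. Without the mean-variance trend, 1 member was called in ch- against ctrl, beside 1.53% of all genes. In HL60 libraries and ctrl alone, which hold fewer samples, ch- against ctrl gave 0.015 for Ccn4 and 0.16 for Ajuba, and ch+ against ch- gave 0.028 for Amotl2. Late against ch+ gave 2 called members, beside 9.91% of all genes, 0.021 for Ccn2 and -0.14 for Ccn1, and late against ch- gave -0.076 for Ajuba and 0.34 for Ccn3. In ML1 libraries and ctrl alone, Amotl2 was 0.16 in ch- against ctrl. With only the groups compared in the fit, ch+ against ch- had 5 called members, beside 6.67% of all genes. With no filter, Ccn5 was not called in ch+ against ctrl (adjusted p 0.118) nor Ccn2 in HL60 late against ctrl (adjusted p 0.105), HL60 ch+ had 1 called member against ctrl and 1 against ch-, beside 1.59% and 1.51% of all genes, and ML1 ch+ had 2 and 1, beside 2.35% and 1.39%. At an adjusted p under 0.05, HL60 ch+ had 1 against ctrl and 1 against ch-, beside 3.55% and 2.71%.

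With the lines apart, the calls lost with no filter in ch+ were Ccn4 in HL60 against ctrl and ch-, Ccn4 and Ccn5 in ML1 against ctrl, and Ccn1 and Ccn5 in ML1 against ch-. Rescaling ended those of Ccn4 in HL60 ch+ against ctrl and ch-, Ccn4 in ML1 ch+ against ctrl and Ccn1 in ML1 ch+ against ch-. In ML1 libraries and ctrl alone, Ccn1 in late against ch- was not called, at -0.24 (adjusted p 0.31).

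Calls gained that the report does not give were these. Ccn3 was called in late against ch- as the mean of both lines, at -0.81 (adjusted p 0.0554), in ML1 libraries and ctrl alone, at -1.96, and without HL60 late 398, at -1.25. In ch+ against ch- it was called with only those groups in the fit, at 0.85 (adjusted p 0.0601), and in ML1 without ch+ 538, at 1.44. Ccn2 in HL60 ch+ against ctrl was called when rescaled, at 0.44, with robust empirical Bayes (adjusted p 0.098) and without HL60 ch+ 525, at 0.45. Ccn1 in HL60 ch+ against ch- was called with robust empirical Bayes (adjusted p 0.0999). Rescaled, calls were gained by Ccn1 in late against ch+, at 0.66, and between the lines in late, at -0.44, by Amotl2 in late against ch-, at 1.09, and with the lines apart by Amotl2 in HL60 and ML1 late and Ajuba in ML1 late against ctrl. Amotl2 in ML1 late against ctrl was called without ctrl 375, at 0.84. In HL60 libraries and ctrl alone, Ccn4 in ch+ was called against ctrl and against ch-.

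Leaving out each library in turn gave these ranges for results that changed sign or moved, all but the counts being differences that were not called. In ch+ against ctrl, 1 to 3 members were called and Amotl2 ran from -0.31 to 0.18. In ch- against ctrl, Ccn4 ran from -0.12 to 0.085, Ccn5 from -0.0012 to 0.21 and Amotl2 from -0.18 to 0.31. In late against ch+, Ccn1 ran from -0.020 to 0.089. In HL60 late against ctrl, Ajuba ran from -0.14 to 0.28, Amotl2 from -0.047 to 0.44 and Ccn3 from -0.54 to 0.21. In HL60 ch+ against ctrl, 1 to 3 members were called, Amotl2 ran from -0.32 to 0.17 and Ccn3 from -0.025 to 0.51. In ML1 ch+ against ctrl, 2 to 4 were called and Amotl2 ran from -0.38 to 0.19. In HL60 ch- against ctrl, 1 to 2 were called, Ccn4 ran from -0.070 to 0.13, Ajuba from -0.21 to 0.59 and Amotl2 from -0.35 to 0.14. In ML1 ch- against ctrl, Ccn4 ran from -0.17 to 0.037, Ccn5 from -0.095 to 0.21 and Amotl2 from -0.0058 to 0.48. In HL60 ch+ against ch-, 1 to 2 were called and Amotl2 ran from -0.11 to 0.20, and in ML1, 1 to 4 were called and Ajuba ran from -0.61 to 0.18. Between the lines, Ccn2 in late ran from -0.050 to 0.098. In ch+ Ccn4 ran from -0.21 to 0.049, Ajuba from -0.35 to 0.45, Ccn5 from -0.51 to 0.051, Amotl2 from -0.21 to 0.23 and Ccn3 from -0.64 to 0.048. In ch- Ccn2 ran from -0.079 to 0.076, Ccn5 from -0.010 to 0.32 and Ccn3 from -0.11 to 0.29. Beside these counts the shares of all genes called on leaving out a library ran from 4.18% to 6.44% in ch+ against ctrl, 3.77% to 5.70% in HL60 ch+ and 4.48% to 7.14% in ML1 ch+ against ctrl. They ran from 0.817% to 1.75% in HL60 ch- against ctrl, and for ch+ against ch- from 2.27% to 4.17% in HL60 and 2.87% to 4.68% in ML1.

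Of the values of called members in the pooled comparisons, 245 of those from other settings kept direction and call, 13 kept direction alone and 1 changed direction. On leaving out a library these counts were 414, 6 and 0. The change of direction was that of Ccn1 in late against ch- when rescaled, at 0.39, which was below the rescaled median of all genes. Of pooled values that were not called, 21 gained a call with the same sign in other settings, 1 gained it with the sign changed (Ccn2 in late against ch+, rescaled, adjusted p 0.000305), and 9 gained it on leaving out a library. With the lines apart, called members kept 89 and lost 15 calls in other settings, while 7 values gained a call. On leaving out a library they kept 509 and lost 37, while 3 values gained a call. For called list genes in the pooled comparisons, 1668 values from other settings kept direction and call. A further 261 kept direction alone and 16 changed direction. On leaving out a library, 2931 of their values kept both and 219 kept direction alone. The limits are 3 libraries a group and line, 3 ctrl libraries shared by all comparisons with ctrl, values that were shrunk and come with no depth per library, and bulk RNA of sorted cells.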
